A study of Mus musculus with 48 samples.

Results

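The urea cycle and its glutamine side reactions were examined as a group of 10 mouse genes: *Cps1*, *Otc*, *Ass1*, *Asl*, *Arg1*, *Nags*, *Glul*, *Gls2*, *Oat* and *Slc25a15*. Members were taken by name, without use of their values: every probe whose transcript identifier mapped to one of these symbols was kept. That gave 11 probes for 9 genes out of 41174 probes, of which 27050 could be named and stood for 18434 genes. *Otc* and *Glul* had 2 probes each, and no probe mapped to *Cps1*, so no value is given for it.

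RNA of liver and of whole colon was measured on 48 two-colour Agilent arrays, with the mouse RNA in one dye and a common mouse reference RNA in the other. The mice were C57/BL6 offspring sampled at 12 weeks of age, and their group names give the diet of the dam first (from before mating through lactation) and that of the offspring from weaning second. H stood for a diet supplemented with selenium and folate, above the recommended requirement per the paper. L stood for a diet marginally deficient in both, called low here. The groups were thus HH (both supplemented), HL (offspring low), LH (dam low) and LL (both low), all on a high-fat base diet. Each tissue held 6 arrays per group, but liver HH replicates 3 and 6 were the same animal and were averaged, which left 5 HH and 6 mice in each other liver group. The labels do not tie a liver to a colon, the animals were fasted and then re-fed before sampling, and litters were not given in the sources used here.

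The cycle turns ammonia into urea. In the mitochondria of periportal hepatocytes, Cps1 combines ammonia and bicarbonate into carbamoyl phosphate once it is activated by N-acetylglutamate, the product of Nags. Otc joins carbamoyl phosphate to ornithine to give citrulline, Ass1 and Asl turn citrulline into arginine in the cytosol, Arg1 splits arginine into urea and ornithine, and the carrier Slc25a15 returns ornithine to the mitochondrion. Gls2, the liver glutaminase, releases ammonia from glutamine beside the cycle, whereas Glul (glutamine synthetase), in the hepatocytes next to the central vein, binds the ammonia that the cycle left. Oat, found in the same pericentral cells, moves the nitrogen of surplus ornithine to glutamate. In the gut, Otc, Ass1 and Oat also serve the making of citrulline, ornithine and arginine.

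On GRCm38.p6 the members lie on separate chromosomes or far apart: *Otc* at chrX:10252230-10321024, *Ass1* at chr2:31470270-31520670, *Asl* at chr5:130011258-130024381, *Arg1* at chr10:24915207-24927470, *Nags* at chr11:102145513-102149528, *Glul* at chr1:153899929-153909723, *Gls2* at chr10:128194635-128210004, *Oat* at chr7:132557475-132576398 and *Slc25a15* at chr8:22375550-22398621. These are the spans of the genes, since the place of each probe within its transcript was not used here. The RefSeq promoter table held 6 of the 9 genes. The 250 bases before the gene start are shown for *Glul*, 1 of whose 2 probes passed an unadjusted p of 0.05 in several liver diet comparisons, and for *Ass1* and *Oat*, whose levels varied together from mouse to mouse. Capitals mark the matched motifs, which were searched on both strands: CCAAT, the E-box CACGTG and the C/EBP motif TTNCNNAA. The TATA box TATAAA, an HNF4 motif (TGNACTTTG) and a TCF motif (CTTTGAT) were searched likewise and had no match in these windows. On the minus strand of the window a match reads as its reverse complement.
Glul, chr1:153899679-153899928, plus strand: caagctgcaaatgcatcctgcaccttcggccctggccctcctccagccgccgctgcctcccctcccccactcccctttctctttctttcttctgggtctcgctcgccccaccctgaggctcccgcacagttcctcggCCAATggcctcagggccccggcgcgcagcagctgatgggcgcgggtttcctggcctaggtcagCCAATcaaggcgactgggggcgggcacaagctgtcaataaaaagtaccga
Ass1, chr2:31470020-31470269, plus strand: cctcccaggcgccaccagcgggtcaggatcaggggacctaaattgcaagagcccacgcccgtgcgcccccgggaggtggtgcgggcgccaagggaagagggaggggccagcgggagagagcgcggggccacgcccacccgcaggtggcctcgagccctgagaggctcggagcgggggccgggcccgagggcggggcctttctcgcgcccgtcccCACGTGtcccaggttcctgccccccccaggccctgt
Oat, chr7:132576399-132576648, minus strand: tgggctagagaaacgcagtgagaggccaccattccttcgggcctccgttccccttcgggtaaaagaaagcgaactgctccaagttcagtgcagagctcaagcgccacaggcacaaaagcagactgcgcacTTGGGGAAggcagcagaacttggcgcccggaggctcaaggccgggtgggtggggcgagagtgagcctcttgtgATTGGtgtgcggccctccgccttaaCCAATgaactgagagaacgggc
*Glul* held CCAAT at 2 places, *Ass1* held CACGTG at 1 place, and *Oat* held CCAAT at 2 places, once on each strand, and TTNCNNAA at 1. Over all 32851 promoters of this length in the table, CCAAT was present in 33.8%, CACGTG in 6.0% and TTNCNNAA in 36.8%. These motifs are common strings, and a match describes the letters only.

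All 11 probes were well above background on all 24 arrays of each tissue and none was saturated. Values below are log2 of mouse over reference signal after background correction and loess normalisation, so 0 means as much signal as the reference, and a level may be compared between mice but not between probes. Hepatocyte markers separated the tissues, with a mean over the marker list between 0.85 and 1.84 in the livers and between -4.34 and -3.82 in the colons. A single LH liver stood apart in adipocyte markers (1.26, against a median of -1.51 in that group) and a single HL liver in markers of pancreatic acinar cells (1.15, against -2.24). In colon, LL replicate 4 stood apart in lymphocyte markers (2.07, against -0.28) and Kupffer markers (0.86, against -0.73), and adipocyte markers ran from -0.91 to 3.01 in LL and from -0.9 to 2.23 in LH. The part of these markers in the member values was not tested. Although the study describes male offspring, *Xist* signal was high in 2 livers and 6 colons. Of these, 1 liver (HL replicate 2) and 3 colons (LL replicates 1 and 3, HL replicate 5) had low signal of the Y-linked *Eif2s3y*. The other 1 liver (LL replicate 6) and 3 colons (HH replicates 1 and 5, LL replicate 5) did not. All mice with low *Eif2s3y* signal were thus offspring fed diet L. The part of sex in the values of the X-linked *Otc* or other members was not tested. Without the mice of high *Xist* signal, LH minus HH of the dim *Glul* probe below was 0.5 (limma p 0.00872). LL minus LH of the bright *Otc* probe in colon was then -0.45 (p 0.0235). HL minus HH of the dim *Glul* probe was 0.33 (p 0.077). The liver interaction of the dim *Otc* probe was -0.62 (p 0.0784) and the colon offspring diet on the bright *Otc* probe -0.2 (p 0.122).

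Every measured member was far higher in liver than in colon. All 11 probes were called higher in liver (fold over 1.5 and adjusted p under 0.05), beside 14.6% of all probes, and for all 11 every liver mouse lay above every colon mouse, as it did for 11.1% of all probes. The median difference over the members was 3.8 on the log2 scale, against 0.01 over all probes. Both tissues are mixtures of cells, so that fewer cells of a type and less RNA per cell cannot be told apart, and tissue cannot be told apart from slide set and scan day, since livers and colons were on different slides.

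**Figure D1:**
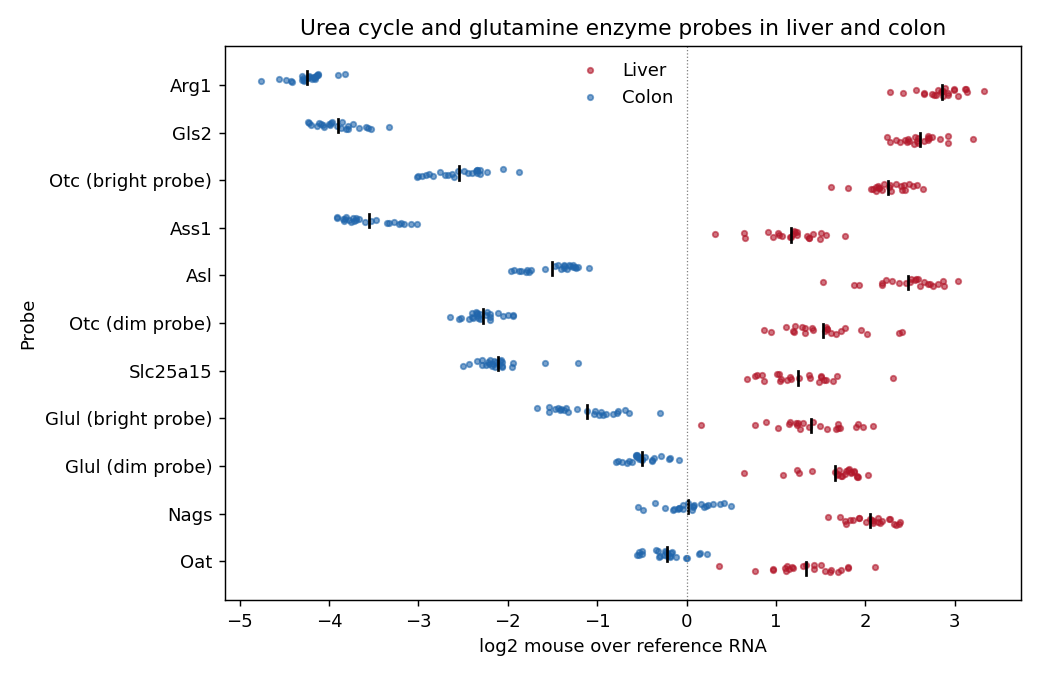
Log2 mouse over reference signal (horizontal axis) of each of the 11 probes (vertical axis) in 23 livers (red) and 24 colons (blue), with each point 1 mouse and a bar at the tissue mean. For each probe the lowest liver lies above the highest colon.

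The cytosolic enzymes of the cycle were all higher in liver, with the widest gap of any member for *Arg1*. *Arg1*, the arginase that releases urea, ranged from 2.28 to 3.33 in liver (median 2.87) and from -4.76 to -3.82 in colon (median -4.22). The mean difference was 7.1 (SE 0.08, 95% interval 6.94 to 7.25), a 137-fold difference with an adjusted p of 1.55e-48 in limma. It was the 63rd highest of 41171 probes by this difference. *Ass1*, which joins citrulline to aspartate, lay between 0.32 and 1.77 in liver (median 1.2) and between -3.91 and -3.02 in colon (median -3.68). Its liver signal was 26.6-fold higher (log2 difference 4.73, SE 0.11, limma adjusted p 9.19e-36). *Asl*, which splits argininosuccinate into arginine and fumarate, lay between 1.53 and 3.03 in liver (median 2.55) and between -1.97 and -1.09 in colon (median -1.39), a 15.8-fold difference (3.98, SE 0.11, adjusted p 1.63e-32).

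Among the mitochondrial members, *Otc* was measured by a bright and a dim probe. The bright probe lay between 1.61 and 2.64 in liver (median 2.26) and between -3.02 and -1.88 in colon (median -2.53), 27.7-fold apart (4.79, SE 0.09, adjusted p 4.93e-40). The dim probe gave 13.9-fold (3.8, SE 0.11, adjusted p 2.26e-31), so both probes placed *Otc* in the same order with sizes that differed. *Slc25a15*, the ornithine carrier, ranged from 0.67 to 2.31 in liver (median 1.17) and from -2.5 to -1.21 in colon (median -2.14), a 10.3-fold difference (3.36, SE 0.12, adjusted p 1.2e-28). It was the member with the weakest spots, with a median mouse-channel intensity of 656 in liver and 155 in colon. *Nags*, which makes the activator of Cps1, lay between 1.58 and 2.39 in liver (median 2.08) and between -0.54 and 0.5 in colon (median 0.04). Its difference was 4.12-fold (2.04, SE 0.09, adjusted p 3.24e-24), and its colon level was close to that of the reference RNA.

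The glutamine enzymes split. *Gls2* lay between 2.24 and 3.2 in liver (median 2.59) and between -4.23 and -3.33 in colon (median -3.94), 91.3-fold higher in liver (6.51, SE 0.08, 95% interval 6.34 to 6.68, adjusted p 1.33e-45). *Glul* was higher in liver by 5.66-fold on its bright probe (2.5, SE 0.13, adjusted p 1.22e-21) and by 4.43-fold on its dim probe (2.15, SE 0.09, adjusted p 8.75e-26). The bright *Glul* probe ran from 0.16 to 2.08 in liver (median 1.37) and from -1.67 to -0.3 in colon (median -1.08), so the lowest liver came close to the highest colon. *Oat* showed the smallest gap of the members: 0.36 to 2.11 in liver (median 1.33), -0.55 to 0.23 in colon (median -0.22), and a 2.96-fold difference (1.56, SE 0.12, adjusted p 2.71e-16).

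The isozymes and partners of the members did not share this one-sided pattern. Of 22 measured genes of ammonia and glutamate metabolism outside the members, 10 were called higher in liver and 5 higher in colon. Over all probes 14.6% were called higher in liver, and the share called higher in colon was not counted. *Arg2*, the mitochondrial arginase, was 2.47-fold higher in colon (log2 difference -1.31, SE 0.11, adjusted p 3.77e-14), opposite to *Arg1*. *Asns*, which spends glutamine to make asparagine, was 18.8-fold higher in colon (-4.23, SE 0.19, adjusted p 1.1e-24). On the liver side stood *Glud1* (glutamate dehydrogenase) at 5.45-fold, *Gpt2* (alanine aminotransferase) at 17.8-fold and *Slc25a13* (the aspartate-glutamate carrier citrin) at 8.87-fold. *Slc25a2*, a second ornithine carrier, differed by 1.18-fold, under the fold threshold.

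Of 21 amino acid and ammonia transporters, 6 were called higher in liver and 8 higher in colon. For this list and those below, the share of all probes higher in liver was 14.6%, and that higher in colon was not counted. *Slc38a3*, which carries glutamine in periportal hepatocytes, was 37.2-fold higher in liver and *Slc38a4* 88.6-fold, whereas *Slc1a5*, a carrier of glutamine and other neutral amino acids, was 13.8-fold higher in colon. All 25 measured genes of amino acid catabolism were called higher in liver. So were 10 of 13 periportal genes (2 higher in colon), 14 of 18 pericentral genes (2 higher in colon), 11 of 14 fasting and feeding genes (2 higher in colon), 7 of 16 regulators of urea cycle genes (4 higher in colon), 4 of 9 clock genes of the *Dbp* phase and 2 of 5 of the *Arntl* phase.

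**Figure D2:**
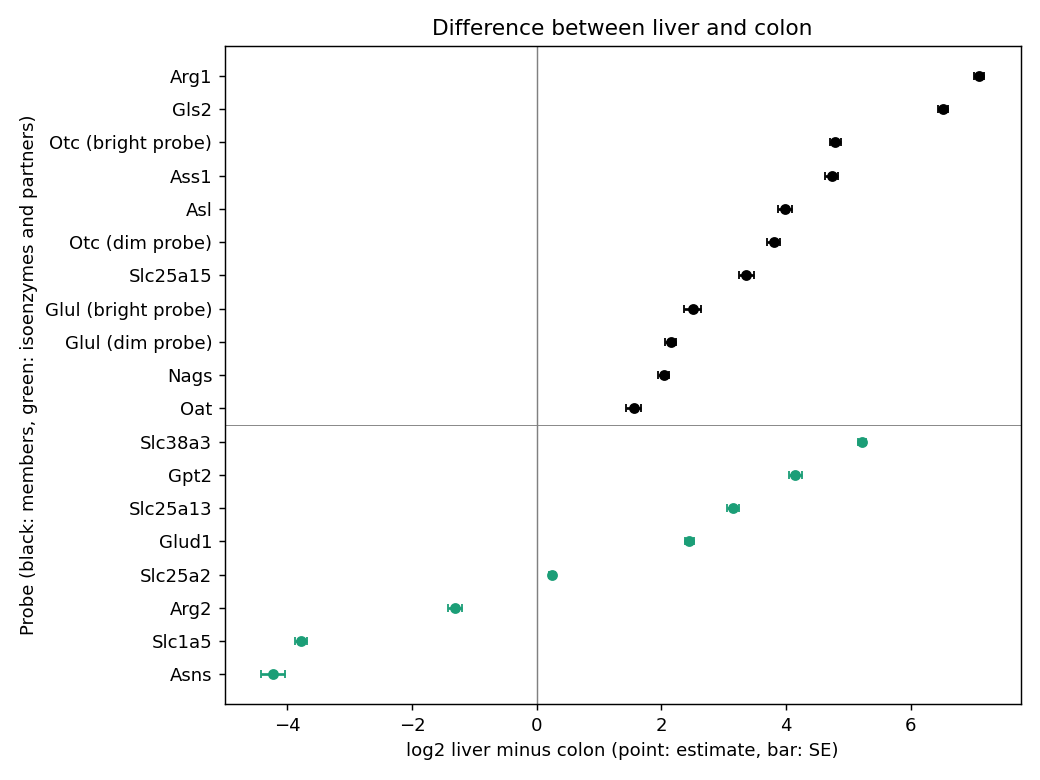
Liver minus colon difference in log2 signal (horizontal axis) for the 11 member probes (black) and 8 isozymes, partners and carriers (green), with points at the fitted difference and bars for its SE. All members lie to the right of 0, from *Oat* (1.56) to *Arg1* (7.1), whereas *Arg2*, *Slc1a5* and *Asns* lie to the left.

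In the livers, no diet comparison gave a member that passed the fold and adjusted p thresholds. Over all 41171 liver probes limma also called none (0%) for HH *vs.* LH, HH *vs.* HL, HH *vs.* LL, HL *vs.* LL, LH *vs.* LL, HL *vs.* LH, the dam diet, the offspring diet or their interaction, and over 41173 colon probes it called none (0%) in the same 9 comparisons. At an unadjusted p under 0.05, 1 of 11 member probes differed in liver HH *vs.* LH, beside 12% of all probes. It was the dim *Glul* probe, which was also the single member probe in HH *vs.* HL (beside 4.38%), in HH *vs.* LL (beside 3.45%) and for the dam diet (beside 4.14%). No member passed in HL *vs.* LL (3.08%), LH *vs.* LL (6.38%), HL *vs.* LH (1.74%) or for the offspring diet (1.37%). In the interaction (11.4%) the dim *Otc* probe was the 1 of 11. With slide as a block, 2 probes passed in HL *vs.* LL, the bright *Otc* probe (-0.25, p 0.0141) and the bright *Glul* probe (-0.38, p 0.0386), beside 4.67% of all probes. In the blocked interaction (13.9%) the bright *Otc* probe passed (-0.29, p 0.0438) and the dim one did not (-0.63, p 0.0509).

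*Glul* on the dim probe read 1.82, 1.4, 0.64, 1.08 and 1.68 in the 5 HH livers. It ran from 1.69 to 1.91 in LH (median 1.85), from 1.23 to 2.03 in HL (median 1.85) and from 1.66 to 1.81 in LL (median 1.76). In words, 3 HH livers lay below all LH and LL livers and 2 lay among them, so the groups overlapped. LH exceeded HH by 0.5 (SE 0.17, 95% interval 0.15 to 0.84), or 1.41-fold, with an unadjusted p of 0.00641 and an adjusted p of 0.267 in limma. HL exceeded HH by 0.37 (SE 0.17, p 0.0362, adjusted p 0.952) and LL by 0.42 (SE 0.17, p 0.0174, adjusted p 1). The spread was widest in HH (SD 0.48) and narrow in LH (SD 0.1) and LL (SD 0.05). Each slide carried 1 array of each group, and LH lay above HH on 5 of 6 slides, with slide 1 the exception (-0.11). Slides 3 and 6 carried the same HH mouse, so that LH was above HH for 4 of 5 distinct HH mice, by up to 1.23 for that mouse and up to 0.61 for the others.

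The bright *Glul* probe did not show it. The HH livers read 1.41, 1.25, 0.16, 1.9 and 1.97 on this probe. LH ran from 1.15 to 1.92 (median 1.53), HL from 0.89 to 2.08 (median 1.68) and LL from 0.77 to 1.37 (median 1.24). LH minus HH was 0.16 (SE 0.25, 95% interval -0.35 to 0.68, p 0.521), LL minus HH was -0.18, and LH lay above HH on 3 of 6 slides, or for 2 of 5 distinct HH mice. With both probes averaged, LH exceeded HH by 0.33 with an unadjusted p of 0.0804. The probes followed each other only in part across the 23 livers (r 0.49 of deviations from group means, and 0.12 without 1 HH mouse), and which of them tracks the transcript better was not tested.

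**Figure D3:**
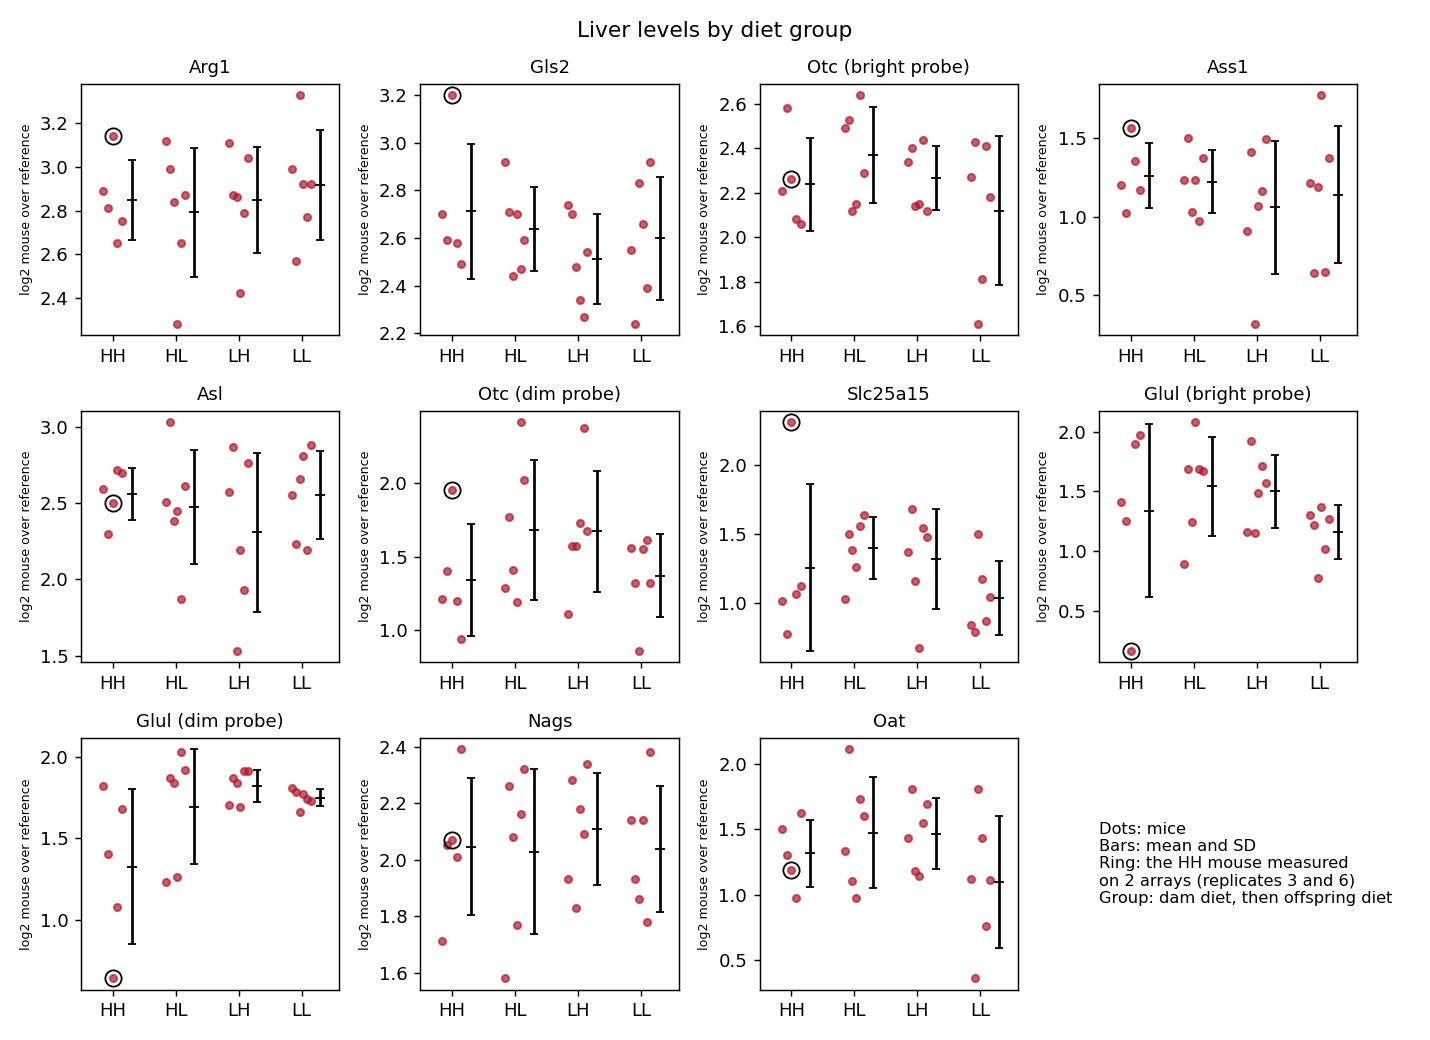
Log2 mouse over reference signal in every liver (points) by diet group for the 11 member probes, with the group mean and SD as bars. The ringed HH point is the mouse measured on 2 arrays, which reads 0.64 and 0.16 on the *Glul* probes and 2.31 on *Slc25a15*.

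For *Arg1*, *Ass1*, *Asl* and *Nags* the liver groups overlapped and no diet comparison passed an unadjusted p of 0.05. *Arg1* had group means of 2.85 in HH, 2.79 in HL, 2.85 in LH and 2.92 in LL, and its LH minus HH interval ran from -0.3 to 0.3. *Ass1* had means of 1.26, 1.22, 1.06 and 1.14 in the same order, and *Asl* 2.56, 2.47, 2.31 and 2.55, each with its lowest liver in LH (0.32 and 1.53). The LH minus HH difference was -0.2 for *Ass1* (95% interval -0.6 to 0.2, p 0.315) and -0.25 for *Asl* (95% interval -0.69 to 0.18, p 0.236). Both intervals cross 0 and reach changes larger than those fitted. *Nags* had means of 2.05, 2.03, 2.11 and 2.04.

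*Otc* on the bright probe had means of 2.24 in HH, 2.37 in HL, 2.26 in LH and 2.12 in LL. On the dim probe these were 1.34, 1.68, 1.67 and 1.37, so that both single-low groups were the higher ones, and the interaction of dam and offspring diet was -0.65 (SE 0.31, 95% interval -1.28 to -0.01, p 0.0454, adjusted p 0.43). All 4 groups overlapped. *Gls2* had means of 2.71, 2.64, 2.51 and 2.6, and LH minus HH was -0.2 (95% interval -0.47 to 0.08, p 0.148). *Oat* read 1.32, 1.47, 1.47 and 1.1, and *Slc25a15* 1.25, 1.4, 1.32 and 1.03, with LL the lowest group for both and no difference from HH that passed an unadjusted p of 0.05.

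**Figure D4:**
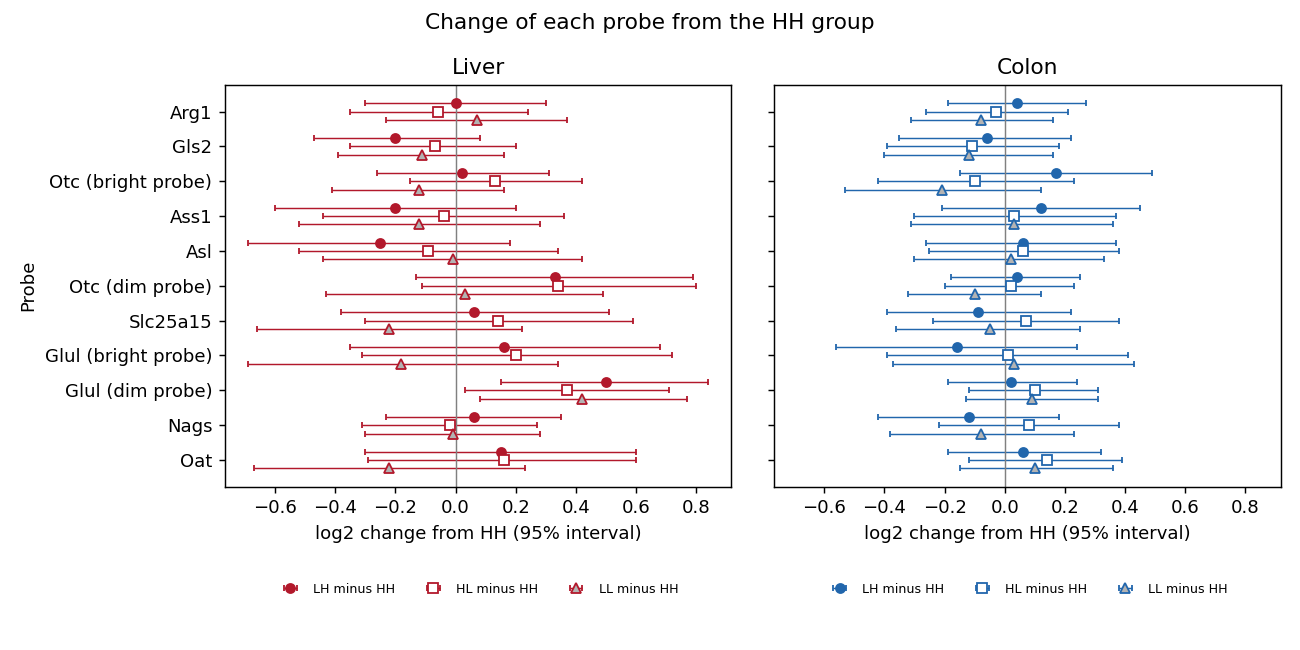
Change in log2 signal against HH (horizontal axis) for HL, LH and LL in each tissue, with points at the fitted change and bars for the 95% interval, for the 11 member probes. In liver the bars of the dim *Glul* probe lie clear of 0 in all 3 comparisons, and those of every other member probe cross 0.

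The HH liver of the animal hybridised as replicates 3 and 6 stood apart from the other 4 in several members at once. It read 2.31 on *Slc25a15*, where the others lay between 0.77 and 1.12, and 3.2 on *Gls2*, where they lay between 2.49 and 2.7. On *Glul* it was the lowest of all 23 livers (0.16 and 0.64). Its pair of arrays gave 2.31 and 2.32 for *Slc25a15* and 0.25 and 0.07 for the bright *Glul* probe. Its mean over the periportal list was 1.82 (other HH livers 0.9 to 1.0), over the pericentral list 0.88 (1.41 to 1.78) and over the *Dbp*-phase clock list -0.38 (0.08 to 1.28).

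Without this mouse, LH minus HH was 0.33 for the dim *Glul* probe (p 0.0353) and -0.13 for the bright one (p 0.511), and 0.48 for the dim *Otc* probe (p 0.0388), beside 13.9% of all probes under an unadjusted p of 0.05. HL minus HH then was 0.41 for *Slc25a15* (p 0.0218) and 0.5 for the dim *Otc* probe (p 0.035), beside 6.28%, while the dim *Glul* probe no longer passed (0.2, p 0.188). LL minus HH was -0.47 for the bright *Glul* probe (p 0.0267), beside 3.88%, and 0.25 for the dim one (p 0.0952), whose dam diet difference was 0.19 (p 0.0629).

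The interaction without this mouse was -0.69 for *Slc25a15* (p 0.00501, adjusted p 0.214) and -0.8 for the dim *Otc* probe (p 0.0131, adjusted p 0.252), beside 13.1% of all probes. HL *vs.* LL gave -0.36 for *Slc25a15* (p 0.0221) and -0.38 for the bright *Glul* probe (p 0.0426), beside 3.27%. No member passed the adjustment.

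The wider gene lists were compared in liver HH *vs.* LH, where 12% of all probes passed an unadjusted p of 0.05 and none the adjustment. The comparisons of these lists, and of the cell type markers below, were not repeated without the HH mouse that stood apart. Of the 22 ammonia and glutamate partners, 1 was higher (*Gpt2*, 0.36, p 0.0483) and 2 lower in LH at that level. Of 21 transporters, *Slc38a4* was higher (0.52, p 0.0398) and *Slc7a1*, a carrier of arginine and ornithine, lower (-0.36, p 0.00963), and the next lowest p was that of *Slc38a1* (-0.28, p 0.0578). Of 25 catabolic genes, *Tdo2* (tryptophan dioxygenase, 0.8, p 0.00245) and *Ivd* (0.21, p 0.0228) were higher and *Kynu* lower (-0.29, p 0.021). The list medians were 0.02, -0.09 and 0.1, against -0.01 over all probes.

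Among the 16 regulators, 2 were higher and 1 lower. *Klf15*, a transcription factor known to drive amino acid catabolism, was higher in LH by 0.51 (p 0.000198, adjusted p 0.182), in HL by 0.54 (p 0.000112) and in LL by 0.32 (p 0.0113). *Hnf4a*, a hepatocyte factor that binds urea cycle genes, was higher by 0.26 (p 0.015), 0.29 (p 0.00839) and 0.23 (p 0.027) in the same order, and *Creb1* was lower in LH (-0.42, p 0.0361). The 3 comparisons share the HH mice. Of 14 fasting and feeding genes, *Insr* was higher (0.43, p 0.0166) and *Pdk4* lower (-0.74, p 0.0456), while *Igfbp1* (0.72) had a p of 0.0534.

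The zonation lists, which hold genes of the hepatocytes where the members act, gave 0 higher and 1 lower of 13 periportal genes (*Etnppl*, -0.77, p 0.00686) and 4 higher and 0 lower of 18 pericentral genes. *Hal* (-0.3, p 0.0851) and *Apoa4* (-0.65, p 0.131) came next among the periportal genes. The 4 pericentral genes were *Cyp27a1* (0.48, p 0.00254), *Cyp2e1* (0.83, p 0.00871), *Gulo* (0.31, p 0.0192) and *Rnase4* (0.68, p 0.0309). The medians of the lists were -0.08 and 0.05. Of 9 clock genes that peak with *Dbp*, 5 were higher in LH (list median 0.67), among them *Tef* (1.09, p 0.00554), *Ciart* (1.57, p 0.00916) and *Per3* (0.67, p 0.0113), and of 5 that peak with *Arntl*, 1 was lower (*Clock*, -0.45, p 0.00861), followed by *Arntl* (-0.68, p 0.087) and *Nfil3* (-0.32, p 0.324). HL gave 6 of the 9 *Dbp*-phase genes at that level and LL gave 2. The HH mouse that stood apart had the highest periportal list mean of the HH livers (1.82). It also had their lowest pericentral (0.88) and *Dbp*-phase (-0.38) list means. The part of this mouse in the zonation and clock differences was not tested.

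Over all cell type marker lists, 4 entries were higher and 9 lower in LH at an unadjusted p under 0.05, or 14% of 93, beside 12% of all probes. Of 11 hepatocyte markers 3 were higher (*Fgb*, *Fga* and *Serpina1c*) and 0 lower, with a list mean of 0.85 to 1.5 in HH and 1.44 to 1.84 in LH. Of 8 myeloid markers 1 was higher (*Csf3r*) and 3 lower (*S100a8*, *S100a9* and *Ccr2*), with a list mean of -0.37 to 0.52 in HH and -0.62 to -0.2 in LH. At the same level 1 of 10 Kupffer, 2 of 7 lymphocyte, 1 of 5 erythroid, 1 of 12 colon epithelium and 1 of 8 smooth muscle markers were lower and none higher. None of 6 cholangiocyte, 8 enteric glia and neuron, 6 adipocyte, 7 pancreas acinar or 5 female and male tissue markers passed. The part of these markers, and of the clock genes, in the *Glul* values was not tested.

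In colon the mean member levels varied little between the 4 diet groups. The fit given first did not account for slide, so that differences between slides widened its intervals. The largest HH *vs.* LH difference of any member was 0.17 in size, and 0 of 11 probes passed an unadjusted p of 0.05 in HH *vs.* LH (beside 3.24% of all probes), HH *vs.* HL (1.46%), HH *vs.* LL (1.72%), HL *vs.* LL (1.02%), HL *vs.* LH (2.95%), the dam diet (2.11%) or the interaction (1.79%). The bright *Otc* probe was the 1 of 11 in LH *vs.* LL (beside 2.8%) and for the offspring diet (beside 2.04%). It ran from -2.7 to -1.88 in LH (median -2.31) and from -3.01 to -2.34 in LL (median -2.8), so the groups overlapped with LL mostly below. LL minus LH was -0.38 (SE 0.16, 95% interval -0.7 to -0.06, 1.3-fold, p 0.0232, adjusted p 1), and the offspring diet gave -0.24 (SE 0.11, p 0.042, adjusted p 1). Without LL replicate 4, which stood apart in the immune markers, these were -0.35 (p 0.047) and -0.22 (p 0.0649).

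With slide as a block the *Otc* difference in LH *vs.* LL was the same in size (-0.38, SE 0.09), with an unadjusted p of 0.000476 and an adjusted p of 0.462, beside 7.18% of all probes at an unadjusted p under 0.05. On the same probe the offspring diet then gave -0.24 (p 0.00146, adjusted p 0.881, beside 5.44%) and HL *vs.* LH 0.27 (p 0.00806, beside 7.9%). HH *vs.* LL gave -0.21 (p 0.035, beside 3.43%) and the interaction -0.28 (p 0.0402, beside 4.8%). No other member probe passed an unadjusted p of 0.05 in the colon fit with slide as a block. The dim *Otc* probe read between -2.34 and -2 in LH and between -2.65 and -2.11 in LL.

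The colon values differed between slides. Slides 11 and 12 lay apart from slides 7 to 10, with slide means that did not overlap for 7 probes, a split noticed in these values. *Ass1* averaged -3.2 on slides 11 and 12 and -3.73 on the others, *Glul* on the bright probe -0.8 and -1.27, and *Gls2* -3.64 and -4.03, all higher. *Asl* averaged -1.84 and -1.33, the bright *Otc* probe -2.84 and -2.4, and *Arg1* -4.44 and -4.15, all lower. Every slide held all 4 groups, so these shifts add to the spread within each group rather than to a difference between groups.

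**Figure D5:**
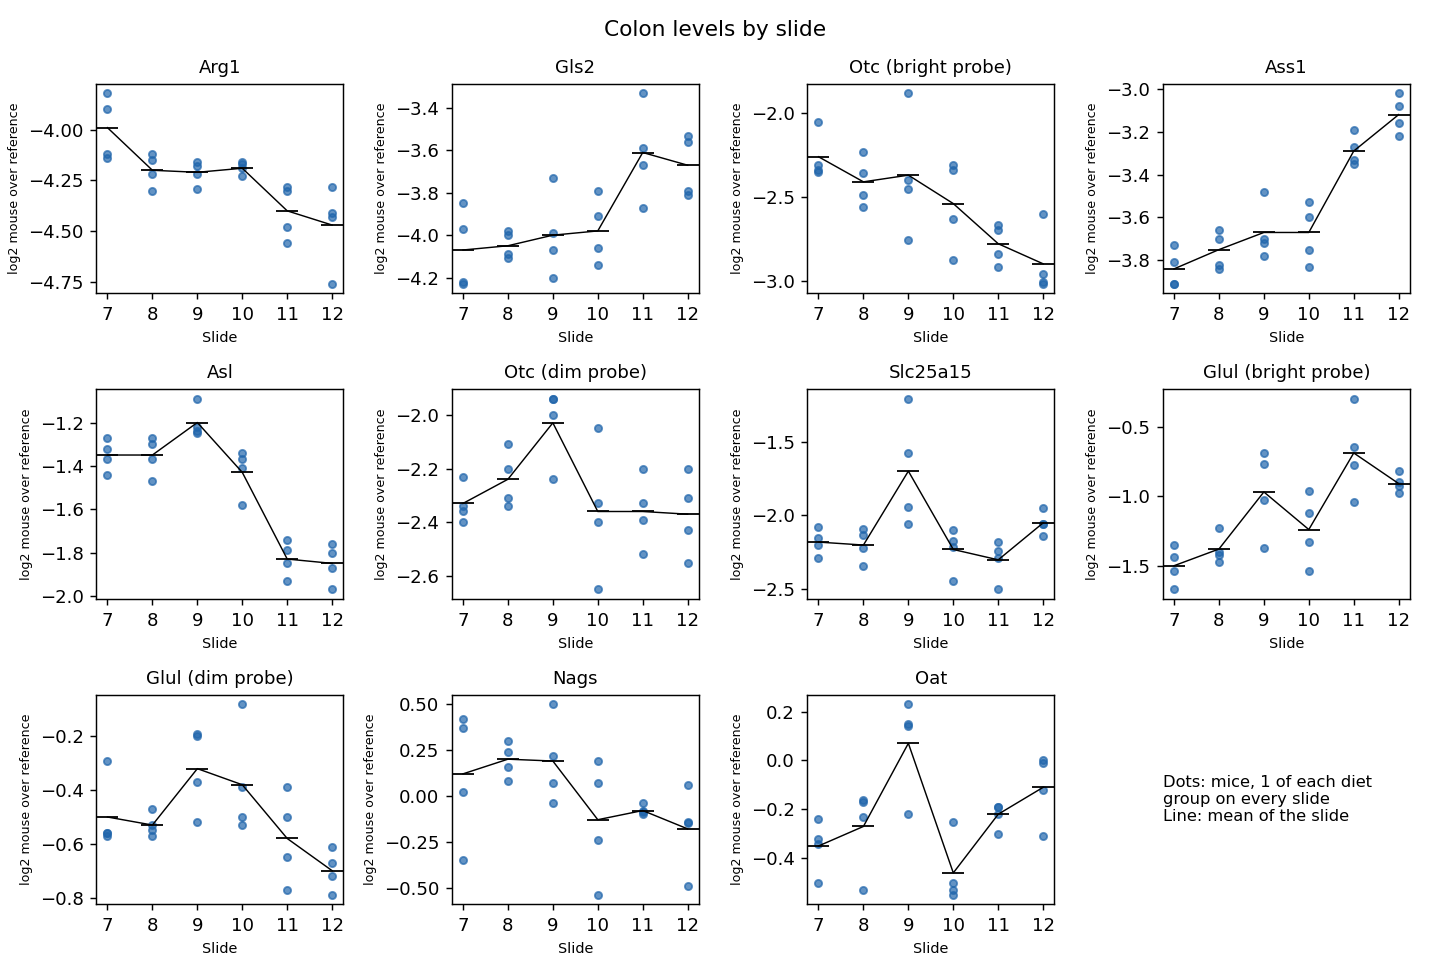
Log2 mouse over reference signal in every colon (points) by slide, 7 to 12, for the 11 member probes, with the slide mean as a line and 1 mouse of each diet group on every slide. *Ass1* and *Gls2* are higher, and *Asl*, *Arg1* and the bright *Otc* probe lower, on slides 11 and 12 than on the rest.

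The change from HH to LH was compared between tissues in 1 fit of all 8 groups. It was larger in liver than in colon by 0.46 (SE 0.18, p 0.0125, adjusted p 0.31) for the dim *Glul* probe, the 1 of 11 at an unadjusted p under 0.05, beside 11.3% of all probes. No other member had a p under 0.128.

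From liver to liver, some members varied together within their diet groups. Over the 23 livers, with each value taken as its deviation from the group mean, *Ass1* and *Asl*, successive enzymes of the cycle, had r 0.78 (0.81 without the HH mouse described above). *Arg1* had r 0.63 with *Gls2* and 0.59 with *Oat*, and *Ass1* had r 0.53 with *Oat*. *Glul* on the bright probe ran the other way: r was -0.58 with *Arg1* (-0.55 without that mouse) and -0.51 with *Gls2*, though the latter was -0.21 without it. The dim *Glul* probe did not share this with *Arg1* (r -0.06, and 0.15 without that mouse). With *Gls2* the dim probe had r -0.55 (-0.33 without that mouse). Of 53 pairs of probes of different genes 31 had r above 0, with a median of 0.13. The points share slides, dyes and a reference, and these values describe the livers measured.

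Across the same livers, the genes closest to the bright *Glul* probe among 12975 measured genes were *Wdr18* (r 0.91), *Dym* (0.82), *Gna14* (0.79), *Lgr5* (0.79) and *Alg12* (0.79). Without the HH mouse these became 0.91, 0.74, 0.61, 0.63 and 0.82. *Lgr5* is a receptor of the Wnt pathway found in hepatocytes beside the central vein.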

How the data were processed

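RNA from 47 mouse samples was hybridised to 48 Agilent arrays on 12 slides, each slide holding 1 array of each diet group of a single tissue. Per the labels the mouse RNA carried Cy3 and the common reference Cy5, with no dye swap. The sources describe the reference RNA differently (whole animal, several organs, or intestine and liver). The deposited spot intensity values and flags came from Feature Extraction 10.10.1.1 per the file headers. The authors also deposited a log2 table of reference over mouse, made with limma and R 3.0.2 per the labels, which equals loess without background correction and was used, with its sign turned, as an alternative.

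Here a local background brighter than its spot was set to the array median (0 to 12 spots an array in Cy3, 32 to 638 in Cy5), followed by normexp (offset 50), loess, removal of spots with outlier flags and averaging of spots per probe (R 4.3.3, limma 3.58.1). In Cy3, 55.1% to 66% of non-control spots were well above background on the liver arrays and 66.8% to 73.7% on the colon arrays. The number of arrays limits the precision. Groups were fitted with lmFit and eBayes per tissue, and tissues with slide as a random block (correlation 0.206). Probes were called at a fold over 1.5 and a Benjamini-Hochberg adjusted p under 0.05. On simulated data with 200 probes changed 2-fold, 91.5% were called in the liver design (40834 probes) and 97.5% in the colon design (40579 probes). The simulated noise was independent between probes and mice, without slides or litters. Changes smaller than 2-fold were not simulated, so these shares do not apply to them. Mice of 1 group may share a litter, so p-values measure the spread between these samples.

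Slide numbers in the labels pair the samples: median correlation of deviations on the same slide was 0.15 in liver (lowest -0.32; other slides -0.04) and 0.36 in colon (lowest 0.09; other slides -0.13). Members and lists (partners, transporters, amino acid catabolism, regulators, fasting and feeding, periportal, pericentral, clock and cell type markers) were chosen with earlier results of these data known. All members were named, with the 3 genes of lowest p in liver HH *vs.* LH from each other list except the markers, and the 5 genes most like *Glul*; with no *Cps1* probe, its 5 were not drawn. *Rnase4*, the markers named and the partners and transporters named between tissues were chosen after their values were seen. Some genes of the partner list are not reported here by name. A gene with several probes was read from the brightest unsaturated one in the lists. Alternatives covered background, normalisation, channel, flags, probe filter, slide, weights, samples in the fit and each mouse left out. The authors' own comparisons were not used.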

Additional observations from a re-analysis of the deposited data

Results flagged for a closer look

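*Slc25a15*, the ornithine carrier, gave the values whose gap to the nearest mouse, divided by the range of the group, was above Dixon's 95% critical value among the 88 combinations of member probe and group examined. In liver HH the mouse of replicates 3 and 6 read 2.31, with the next highest at 1.12. In colon HL replicate 3 read -1.21, with the next highest at -2.06. Its slide, slide 9, had the highest *Slc25a15* mean of the colon slides (-1.7), and the HH colon on it read -1.58, the highest of its group. In colon LH replicate 5 read -2.5, with the next lowest at -2.17. The HH mouse's values on *Gls2* (3.2) and the *Glul* probes did not reach that limit. Such gaps were found in 3 of 88 groups, and chance alone gives about 1 in 20. *Slc25a15* also had the weakest spots of the members.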

How the results depend on the processing

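The direction of the tissue difference held for all 11 probes in the 9 alternatives run and without each mouse in turn (11 probes called, or 9 when probes were averaged to 9 genes). *Arg1* ranged from 6.78 to 7.43 and *Oat* from 1.24 to 1.57 over these alternatives. The sizes of some members moved more: *Slc25a15* ranged from 2.71 to 4.25, the dim *Otc* probe from 3.29 to 4.3 and *Nags* from 1.49 to 2.47. No member was called in any diet comparison of either tissue under any alternative or without any mouse (0 to 0).

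The counts of member probes at an unadjusted p under 0.05 over the 9 comparisons did depend on the setting, and the cause was not tested. In liver the count was 5, and it was 3 with normexp offset 0, 3 without the mice with *Xist* signal, 3 without arrays of compressed ratios, 9 from Cy3 alone, 9 in a fit of all 8 groups, 14 with array weights, 1 with probes averaged, and 1 to 9 without each mouse. In colon it was 2, and it was 4 without the background repair, 1 with offset 0, 4 from processed signals, 0 with median centring, 6 from Cy3 alone, 5 with slide as a replicate block, 1 with only the 2 groups compared (6 comparisons), 1 with probes averaged, 1 without the *Xist* mice, 1 without compressed arrays, 0 to 4 without each mouse, and 3 without slides 11 and 12 (chosen after seeing the data). With slide as a block the liver count was 7. The share of all probe tests at that level moved too in several settings. In liver it went from 5.32% to 9.09% with array weights, 6.49% with all 8 groups and 6.87% with slide as a block. It stayed near that in liver from Cy3 alone (5.1%) and with probes averaged (5.33%). In colon it went from 2.13% to 5.33% with slide as a block, 4.37% with processed signals, 3.66% without the repair and 2.89% from Cy3 alone. For the tissue difference in the HH to LH change the count of member probes was 1, 2 without the repair and 1 to 2 without each mouse.

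*Glul* on the dim probe in LH *vs.* HH ranged from 0.33 to 0.66 over 22 alternatives (p 0.00117 to 0.0804) and from 0.33 to 0.62 without each mouse (p 0.00101 to 0.0353). The alternatives for *Glul* and *Otc* here include the fit with both probes of the gene averaged. For *Glul* that fit gave the p of 0.0804. Its difference in HL passed an unadjusted p of 0.05 in all but 6 of 22 alternatives and all but 6 of 23 omissions. The *Otc* interaction missed it in 7 of 21 and in 13 of 23, and the colon offspring diet on *Otc* in 5 of 22 and 13 of 24. *Slc25a15* in LL *vs.* HH was -0.22 and turned to 0.04 without the HH mouse of replicates 3 and 6. Over all probes, liver HH *vs.* LH gave 6 calls with that mouse's arrays counted as 2 mice, 18 with only the 2 groups, 106 in the fit of all 8 groups, 3 with array weights and 8 without compressed arrays, and the interaction gave 4 with slide as a block, 52 with all 8 groups and 19 with array weights. None was a member probe.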
